A study of Mus musculus with 8 samples.

Results

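The subject is a set of 16 genes that were almost undetected in wild-type kidney cells and clearly present in cells of the cystic kidney. They were chosen from 55304 rows by their normalised counts (CPM, counts scaled to the library total): below 1 CPM in both vehicle-treated WT libraries and 10 CPM or more in both vehicle-treated ADPKD libraries. Of 40082 rows below 1 CPM in the WT cells, 23 reached 10 CPM in the ADPKD cells, and 7 of those were left out because their symbols belong to families described elsewhere (Cxcl14, Krt16, Krt17, Msln, Wnt10a, Wnt10b and Wnt7a). The opposite pattern, below 1 CPM in ADPKD and 10 CPM or more in WT cells, was met by 127 rows. The genes were called silent in WT for this work, but each of the 16 had reads in each WT vehicle library, from 2 to 18 counts, so they were scarce and not absent.

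The labelled material is fresh mouse kidney cells that bind DBA, a plant lectin with affinity for collecting duct epithelium, although 1 line of the extraction protocol speaks of RNA from the whole organ. ADPKD denotes a mouse model of autosomal dominant polycystic kidney disease, in which tubules swell into cysts; the altered gene, strain and sex are not stated in the labels. There were 4 groups of 2 libraries: ADPKD mice on 666-15, ADPKD mice on vehicle (DMSO), WT mice on 666-15 and WT mice on vehicle. The compound 666-15 inhibits CREB, the transcription factor that cyclic AMP activates, and was dosed at 5 mg/kg from postnatal day 11 for 3 weeks, in cycles of 5 days on and 2 days off. Whether both libraries of a group stem from different mice is not stated, so p-values measure the spread between libraries, which may be technical except in WT cells on 666-15, whose libraries differ in sex by their Xist and Ddx3y counts.

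Cystic epithelium is known for raised cyclic AMP, for secretion of growth factors and cytokines, and for macrophages that gather around cysts. CREB binds a palindromic sequence, the cyclic AMP response element (CRE), in promoters of genes that cyclic AMP induces.

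Library totals ranged from 15108793 to 19702638 counts, so that 1 CPM stood for 15.1 to 19.7 counts. One library stood apart: WT 666-15 replicate 2 had 17688 counts of Xist and 0 of Ddx3y, a female pattern, whereas Xist did not exceed 8 counts and Ddx3y was at 1776 counts or more in each of the other 7. Principal cell markers of the collecting duct summed to 9477 and 10340 CPM in ADPKD cells on 666-15, 10680 and 10013 CPM in ADPKD cells on vehicle, 11046 and 10688 CPM in WT cells on 666-15 and 3558 and 3922 CPM in WT cells on vehicle. Krt8 and Krt18, keratins that other simple epithelia also make, are part of these sums. In these bulk samples, more cells of a type and more RNA per cell cannot be told apart.

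**Figure D1:**
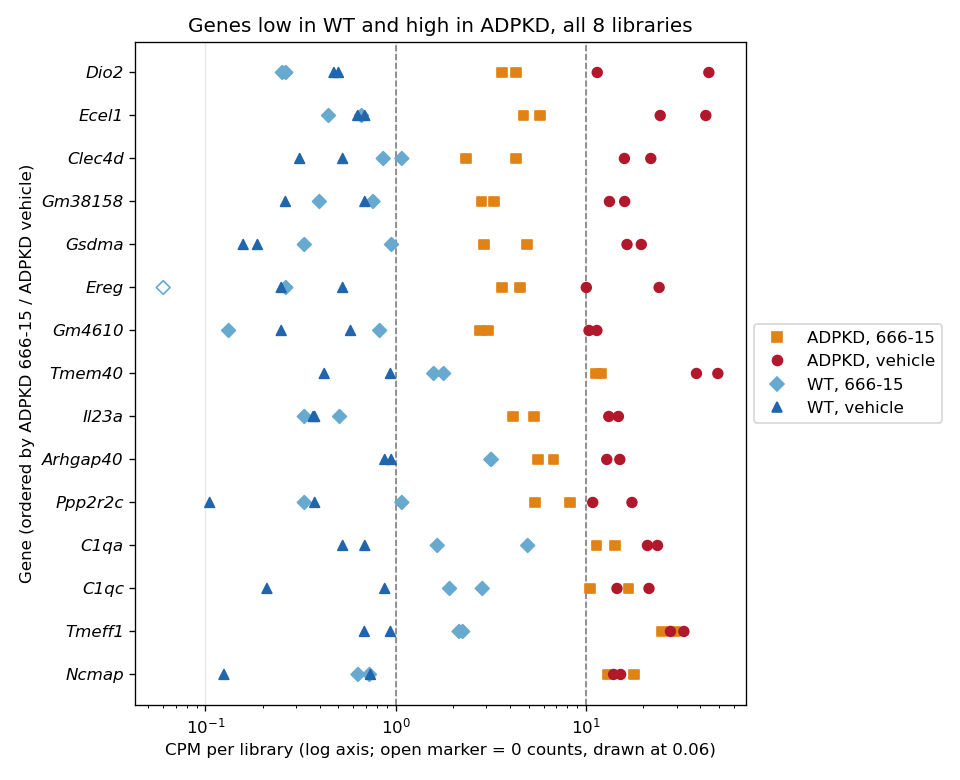
CPM of 15 of the 16 genes in each of the 8 libraries on a log axis, with the 1 and 10 CPM limits of the selection dashed; each marker is 1 library. With 666-15, all ADPKD libraries lie above all WT libraries for every gene drawn, and 4 genes (C1qa, C1qc, Tmeff1, Ncmap) keep over 0.5 times their ADPKD vehicle mean.

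The comparison of ADPKD with WT cells on vehicle chose the genes and is a description. Single ADPKD vehicle libraries held from 10.05 to 49.4 CPM of a gene, against 0.105 to 0.948 CPM in WT vehicle libraries. Ratios of group means ran from 15.3 for Arhgap40 to 104 for Gsdma, with a median of 40.9. Among all genes tested, 56.4% were called in this comparison at an edgeR adjusted p below 0.05, 28.8% higher and 27.6% lower, shares given for scale only. Summed over the 16 genes, the level was 124.7 and 139.1 CPM in ADPKD cells on 666-15, 323 and 363 CPM in ADPKD cells on vehicle, 15.4 and 21.7 CPM in WT cells on 666-15 and 7.26 and 8.57 CPM in WT cells on vehicle.

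Neither library pair on 666-15 took part in choosing the 16 genes, so ADPKD against WT cells on 666-15 tests the genotype difference in other libraries. All 16 genes were higher in ADPKD cells, each at an adjusted p below 0.05, against 21.8% of the 17440 genes tested (edgeR quasi-likelihood test, Benjamini-Hochberg adjustment over all genes). In either direction 46.3% of all genes were called, and 24.5% were lower in ADPKD cells. The median log2 fold change of the 16 was 3.06, with a range of 1.02 to 4.95, and the median over all genes was -0.03. Both ADPKD libraries lay above both WT libraries for all 16, against 33.1% of all genes tested. All 16 passed the filter on low counts, and they also passed it and were called when the 4 inhibitor libraries were fitted alone. The ADPKD libraries can satisfy that filter by themselves, so passing it says nothing about the genotypes.

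Summed markers of other cell types differed between the genotypes in some comparisons and overlapped in others, such as the stromal sums on 666-15. The 10 mesothelial markers summed to 1149 and 1243 CPM in ADPKD cells on 666-15 and 1043 and 1028 CPM on vehicle, against 166 and 128 CPM in WT cells on 666-15 and 166 and 131 CPM on vehicle. Most of that sum was Krt19, a keratin that simple epithelia also make, and without it the other 9 summed to 87.7 and 72.7 CPM in ADPKD cells on 666-15 and 188 and 123 CPM on vehicle, against 122 and 96.6 CPM in WT cells on 666-15 and 145 and 115 CPM on vehicle. Msln, Upk3b, Lrrn4 and Krt19 were the 4 of 10 whose ADPKD libraries all lay above the WT libraries within each treatment. Muc16 and Bnc1 were at or near 0 throughout. Wt1 and Gpm6a went the other way, with every ADPKD library below every WT library. Wt1 had 7.63 to 10.5 CPM in ADPKD libraries and 29.7 to 58.2 CPM in WT libraries. Gpm6a had 0.863 to 6.30 CPM and 18.3 to 65.3 CPM. Wt1 is also a podocyte marker. The 8 podocyte markers, Wt1 included, summed to 133 and 117 CPM in ADPKD cells on 666-15 and 274 and 257 CPM on vehicle. In WT cells they summed to 1073 and 615 CPM on 666-15 and 801 and 776 CPM on vehicle. Cpe was lower in ADPKD cells on 666-15 and overlapped on vehicle. The 16 stromal markers summed to 456 and 404 CPM in ADPKD cells on 666-15 and 873 and 915 CPM on vehicle, against 434 and 275 CPM in WT cells on 666-15 and 498 and 433 CPM on vehicle. The 22 urothelial and squamous markers summed to 1156 and 1443 CPM in ADPKD cells on 666-15 and 735 and 984 CPM on vehicle, against 633 and 666 CPM in WT cells on 666-15 and 676 and 547 CPM on vehicle. The part of these cell types in the differences of the 16 genes was not tested.

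**Figure D2:**
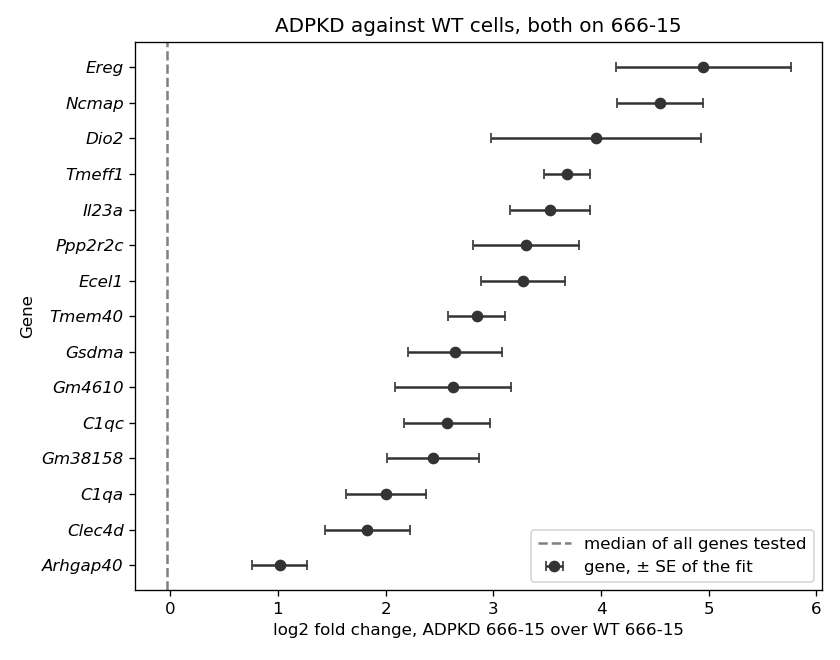
Log2 fold change of ADPKD over WT cells, both on 666-15, for 15 of the 16 genes with the SE of the fit (points and bars), beside the median of all genes tested (dashed). Ereg is at the top with 4.95 and Arhgap40 at the bottom with 1.02.

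The split uses the ratio of mean CPM in ADPKD cells on 666-15 to that on vehicle, and is a description as well. Of the 16 genes, 12 were at or under 0.5 times the vehicle mean and 4 stayed above it. Among all genes tested 14.7% were at or under that ratio. By edgeR 41.4% of all genes were called between the ADPKD treatments, 22.3% higher and 19.1% lower on 666-15. For 13 genes both 666-15 libraries lay below both vehicle libraries, a pattern that 35.2% of all genes tested showed. The vehicle libraries had been chosen for high values of these genes, so nothing is read from these counts. The ratios ran from 0.142 for Dio2 to 1.06 for Ncmap, with Ppp2r2c at 0.482 and C1qa at 0.57 on either side of the limit. With 666-15 both ADPKD libraries lay above both WT vehicle libraries for all 16. The WT vehicle libraries had been chosen for values below 1 CPM, and no share over all genes was computed. That count is therefore a description too, and nothing is read from it.

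**Figure D3:**
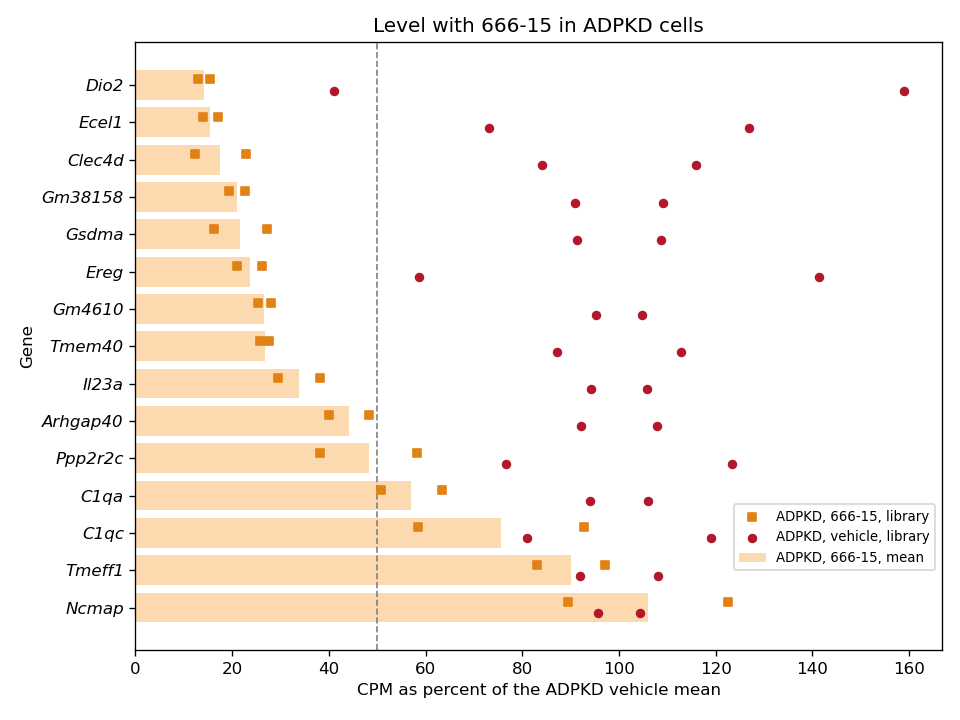
CPM in ADPKD cells as percent of the ADPKD vehicle mean for 15 of the 16 genes: bars are the mean on 666-15, squares its 2 libraries and circles the 2 vehicle libraries, with the 0.5-fold limit dashed. Dio2 is at 14.2% and Ncmap at 106%, and the 2 vehicle libraries are farthest apart for Dio2.

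The secreted signals Ereg and Il23a were among the genes, both in the lowered group. Epiregulin (Ereg, GRCm38 chromosome 5, 91074622 to 91093646), a growth factor that binds the EGF receptor and ErbB4, had 3.62 and 4.50 CPM in ADPKD cells on 666-15, 10.05 and 24.3 CPM on vehicle, 0.265 and 0 CPM in WT cells on 666-15 and 0.526 and 0.250 CPM on vehicle. A count of 0 in WT 666-15 replicate 2 allows up to 0.19 CPM (3 counts, counting error only). The vehicle-treated ADPKD libraries were 2.41-fold apart, yet both were above both 666-15 libraries. On 666-15 the log2 fold change of ADPKD over WT was 4.95 ± 0.81 (SE, adjusted p = 6.58e-04). It was 3.97 without WT 666-15 replicate 2 and 9.19 without replicate 1, where the remaining WT library had 0 counts and the value is no bound.

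The EGF receptor gene was present in every group. Partner genes of this kind were picked for their known function after the 16 genes were known, and unless a test is given their values are a description. Egfr averaged 367 CPM in ADPKD cells on 666-15 and 281 CPM on vehicle, and 236 CPM in WT cells on 666-15 and 204 CPM on vehicle. For scale, here and in the gene lists below, 21.8% of all genes tested rose and 24.5% fell in ADPKD cells on 666-15. On vehicle the shares were 28.8% and 27.6%. Of the 8 other EGF family ligands tested on 666-15, Areg, Tgfa, Hbegf and Nrg1 rose in ADPKD cells and Egf fell. Areg, amphiregulin, was at 2.94 on the log2 scale (adjusted p = 3.63e-06) and Egf at -6.81 (adjusted p = 5.03e-10). On vehicle 3 of these 8 rose (Areg, Tgfa, Hbegf) and 2 fell (Egf, Nrg1), and 1 fell without ADPKD vehicle replicate 1 or WT vehicle replicate 2.

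Il23a (chromosome 10, 128296139 to 128298752) encodes p19, the chain that pairs with the Il12b product to form interleukin-23, a cytokine that sustains T helper 17 cells. It had 4.13 and 5.34 CPM in ADPKD cells on 666-15 and 14.8 and 13.2 CPM on vehicle, against 0.331 and 0.507 CPM in WT cells on 666-15 and 0.369 and 0.375 CPM on vehicle. The groups did not overlap except for the WT groups with each other, and the log2 genotype difference on 666-15 was 3.53 ± 0.37 (adjusted p = 8.15e-06).

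Il12b was close to absent: 0 and 1 counts in ADPKD cells on 666-15, 0 in both ADPKD vehicle libraries, 0 in both WT libraries on 666-15 and 5 and 1 counts in WT cells on vehicle. A count of 0 allows up to 0.152 and 0.159 CPM in the ADPKD vehicle libraries. Of 19 other genes whose symbol is Il, a number and at most 1 letter (3 of them receptor genes), 7 rose and 2 fell in ADPKD against WT cells on 666-15. Without WT 666-15 replicate 1 the counts were 4 and 1. Those that fell were Il15 and Il19, and 1 fell in 8 of the alternatives tried. On vehicle 10 rose and 2 fell (Il15 and Il7), and 1 fell without ADPKD vehicle replicate 1 or either WT vehicle library.

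Dio2 (chromosome 12, 90724552 to 90738438) encodes type 2 deiodinase, which converts thyroxine to the active thyroid hormone T3 and is a known cyclic AMP-induced gene of brown fat. Its promoter is shown because it is the only one of the 10 available RefSeq promoters of these genes with a full CRE. The CRE (TGACGTCA, in capitals) is at bases -95 to -88 from the RefSeq transcript start. That start lies upstream of the gene span given above, which is from GENCODE. The stretch shown is on GRCm38.p6, minus strand, chr12:90739110-90739149.
Dio2 CRE: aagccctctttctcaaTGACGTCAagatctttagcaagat
The full CRE was present in 1 of 10 of these genes and in 2.03% of all 27025 genes with a promoter of the same length in the table (250 bases before to 50 after the start, both strands). A match is a description of the letters and says nothing about binding.

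Dio2 had 3.62 and 4.31 CPM in ADPKD cells on 666-15, 11.5 and 44.3 CPM on vehicle, 0.265 and 0.254 CPM in WT cells on 666-15 and 0.474 and 0.50 CPM on vehicle. It had the lowest ratio of 666-15 to vehicle of the 16 genes and also the widest vehicle pair, 3.86-fold apart. On 666-15 the log2 genotype difference was 3.96 ± 0.97 with the highest adjusted p of the 16 genes (0.0139). The call was lost without ADPKD 666-15 replicate 2 (adjusted p = 0.056), WT 666-15 replicate 1 (adjusted p = 0.169) or WT 666-15 replicate 2 (adjusted p = 0.162), at log2 fold changes of 3.80 to 3.99. Dio1, the deiodinase of the healthy proximal tubule, ran the other way, at 2.03 and 1.41 CPM in ADPKD cells on 666-15 and 0.254 and 0.371 CPM on vehicle, against 33.1 and 45.6 CPM in WT cells on 666-15 and 84.8 and 67.6 CPM on vehicle. The 12 proximal tubule markers moved with Dio1: they summed to 452 and 432 CPM in ADPKD cells on 666-15 and 157 and 203 CPM on vehicle, against 6413 and 5883 CPM in WT cells on 666-15 and 16998 and 14446 CPM on vehicle. Their part in its level was not tested.

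Ecel1 (chromosome 1, 87147655 to 87156521), a membrane endopeptidase of the neprilysin family that neurons induce after nerve injury, had 5.71 and 4.69 CPM in ADPKD cells on 666-15 and 42.7 and 24.6 CPM on vehicle. In WT cells it had 0.662 and 0.444 CPM on 666-15 and 0.632 and 0.688 CPM on vehicle. Its ratio of 666-15 to vehicle, 0.155, was next to that of Dio2, and the log2 genotype difference on 666-15 was 3.28 ± 0.39 (adjusted p = 2.16e-05). The related enzyme gene Ece1 was at 126 to 132 CPM in the 4 ADPKD libraries and 106 to 170 CPM in the 4 WT libraries.

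Gsdma (chromosome 11, 98664351 to 98677708), a gasdermin of skin and other surface epithelia whose cleaved form opens pores in the membrane, had 2.92 and 4.89 CPM in ADPKD cells on 666-15 and 16.4 and 19.5 CPM on vehicle. WT cells had 0.331 and 0.951 CPM on 666-15 and 0.158 and 0.188 CPM on vehicle, the last from 3 counts in each library. It had the largest ratio of ADPKD to WT on vehicle, but a WT mean of 3 counts leaves that ratio imprecise. On 666-15 the log2 genotype difference was 2.64 ± 0.43 (adjusted p = 2.94e-04). Over the alternatives tried it ran from 2.09 to 3.60, the latter without WT 666-15 replicate 2. Gsdma has near copies, Gsdma2 and Gsdma3, which had at most 3 counts in any library; how reads shared between the copies were counted is not given in the sources used here. Of 4 other gasdermin genes tested on 666-15, 3 were called higher in ADPKD cells, and 1 when any 1 of the 4 libraries on 666-15 was left out. Gsdmd, the widely expressed family member, was called lower on 666-15 (-1.06 on the log2 scale, adjusted p = 0.0482), a call lost in 10 of the alternatives. On vehicle none of the 4 was called higher (edgeR), and Gsdmd was called lower except without ADPKD vehicle replicate 1.

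Ppp2r2c (chromosome 5, 36868513 to 36955078), a regulatory B subunit of protein phosphatase 2A known mainly from brain, had 8.25 and 5.40 CPM in ADPKD cells on 666-15 and 17.5 and 10.9 CPM on vehicle. It had 0.331 and 1.08 CPM in WT cells on 666-15 and 0.105 and 0.375 CPM on vehicle. The log2 genotype difference on 666-15 was 3.31 ± 0.49 (adjusted p = 1.97e-04), with 2.71 and 4.40 without WT 666-15 replicate 1 and replicate 2. Its ratio of 666-15 to vehicle passes 0.5 without ADPKD vehicle replicate 1, without ADPKD 666-15 replicate 2, or with the trend of each library with GC content removed. A paralog was present throughout: Ppp2r2a averaged 159 CPM in ADPKD cells on 666-15 and 119 CPM on vehicle, and 132 CPM in WT cells on 666-15 and 101 CPM on vehicle.

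Arhgap40 (chromosome 2, 158512796 to 158550762), a predicted GTPase-activating protein, had 5.59 and 6.75 CPM in ADPKD cells on 666-15 and 15.1 and 12.9 CPM on vehicle. In WT cells it had 3.18 and 3.17 CPM on 666-15 and 0.948 and 0.876 CPM on vehicle. It was the gene with the smallest log2 genotype difference on 666-15, 1.02 ± 0.26 (adjusted p = 0.0057), and that call was lost without ADPKD 666-15 replicate 2 (0.85, adjusted p = 0.0618).

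Tmem40 (chromosome 6, 115729131 to 115762410), a small transmembrane protein, had 11.3 and 12.1 CPM in ADPKD cells on 666-15 and 38.1 and 49.4 CPM on vehicle. WT cells had 1.79 and 1.58 CPM on 666-15 and 0.421 and 0.938 CPM on vehicle. It was the highest of the lowered genes in CPM both on vehicle and on 666-15, and its log2 genotype difference on 666-15 was 2.85 ± 0.27 (adjusted p = 2.87e-06).

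Arhgap40 and Tmem40 were also the only ones of the 10 genes with a promoter in the table that held the AP-1 motif TGANTCA, which Fos and Jun proteins bind (2 of 10, against 8.97% of all genes in the table). The sites are shown with the motif in capitals, on GRCm38.p6. The Arhgap40 sites are on the plus strand at chr2:158512661-158512699 and chr2:158512740-158512778, and the Tmem40 site is on the minus strand at chr6:115762599-115762637.
Arhgap40 first site: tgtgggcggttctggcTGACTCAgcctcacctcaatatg
Arhgap40 second site: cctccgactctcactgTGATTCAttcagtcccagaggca
Tmem40 site: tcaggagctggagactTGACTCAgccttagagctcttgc
The core of the CRE, TGACG, was in the promoters of 4 of the 10 genes (Dio2, whose match is part of its full CRE, and Ncmap, Tmeff1 and Tmem40), against 23.05% of all genes in the table. Of these 4, Dio2 and Tmem40 were in the lowered group and Ncmap and Tmeff1 in the retained group.

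Tmeff1 and Ncmap, both membrane proteins, had the ratios of 666-15 to vehicle nearest to 1. Tmeff1 (chromosome 4, 48585174 to 48663131), which carries follistatin-like and EGF-like domains outside the cell, had 25.1 and 29.4 CPM in ADPKD cells on 666-15 and 32.7 and 27.8 CPM on vehicle, so that the treatments overlapped. WT cells had 2.25 and 2.15 CPM on 666-15 and 0.684 and 0.938 CPM on vehicle. The log2 genotype difference on 666-15 was 3.68 ± 0.21, with the lowest adjusted p of the 16 genes (4.90e-08). Its paralog Tmeff2 stayed at or below 1.06 CPM in each library.

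Ncmap (chromosome 4, 135369576 to 135398227), known as a protein of noncompact myelin in Schwann cells, had 17.9 and 13.1 CPM in ADPKD cells on 666-15 and 15.2 and 14.0 CPM on vehicle, which overlap. It had 0.728 and 0.634 CPM in WT cells on 666-15 and 0.737 and 0.125 CPM on vehicle. Its log2 genotype difference on 666-15 was 4.55 ± 0.40 (adjusted p = 2.08e-06). The 14 neuronal and glial markers summed to 8.38 and 8.42 CPM in ADPKD cells on 666-15 and 9.59 and 14.2 CPM on vehicle, against 16.1 and 20.1 CPM in WT cells on 666-15 and 28.4 and 29.03 CPM on vehicle. The part of such cells in the levels of Ncmap and Ecel1 was not tested.

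C1qa and C1qc encode chains of C1q, which starts the classical complement pathway and is made mainly by macrophages. They lie 2851 bases apart on chromosome 4 (C1qc 136889804 to 136893065, C1qa 136895917 to 136898803), the only members within 1 Mb of each other. C1qa had 11.4 and 14.2 CPM in ADPKD cells on 666-15 and 21.1 and 23.8 CPM on vehicle, against 1.65 and 4.94 CPM in WT cells on 666-15 and 0.526 and 0.688 CPM on vehicle. C1qc had 10.5 and 16.7 CPM in ADPKD cells on 666-15 and 14.6 and 21.5 CPM on vehicle, against 1.92 and 2.85 CPM in WT cells on 666-15 and 0.211 and 0.876 CPM on vehicle. The ADPKD treatments overlapped for C1qc and not for C1qa. On 666-15 the log2 genotype difference was 2.01 ± 0.37 for C1qa (adjusted p = 0.0012). Over the alternatives tried it ran from 1.43 to 3.01, the latter without WT 666-15 replicate 2. For C1qc it was 2.57 ± 0.40 (adjusted p = 3.80e-04), and 2.17 to 2.89 over the alternatives.

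The third chain, C1qb, missed the selection by its 1.05 CPM in WT vehicle replicate 1; it had 11.4 and 19.2 CPM in ADPKD cells on 666-15 and 20.3 and 26.4 CPM on vehicle, against 4.43 and 7.67 CPM in WT cells on 666-15 and 0.25 CPM in the other WT vehicle library. The sum of the other macrophage markers had the same order of group means as the C1q genes, with smaller ratios between genotypes. On vehicle the ratio of ADPKD to WT means was 36.9 for C1qa and 33.2 for C1qc. The 17 macrophage markers outside C1q summed to 286 and 359 CPM in ADPKD cells on 666-15 and 375 and 432 CPM on vehicle, and to 189.0 and 189.1 CPM in WT cells on 666-15 and 174 and 140.5 CPM on vehicle. Lyz2, lysozyme, averaged 48.1 and 70.7 CPM in ADPKD cells on 666-15 and on vehicle, against 16.2 and 3.74 CPM in WT cells. None of the 20 markers was at 0 in every library. Of the 18 outside the 16 genes, 10 rose and 1 (Csf1r) fell in ADPKD against WT cells on 666-15 (all genes: 21.8% and 24.5%). Without ADPKD 666-15 replicate 2 or WT 666-15 replicate 1, 6 rose, and Csf1r was not called without ADPKD 666-15 replicate 1 or WT 666-15 replicate 1. On vehicle 15 rose and 1 fell (all genes: 28.8% and 27.6%). The part of macrophages in the levels of the 16 genes was not tested.

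**Figure D4:**
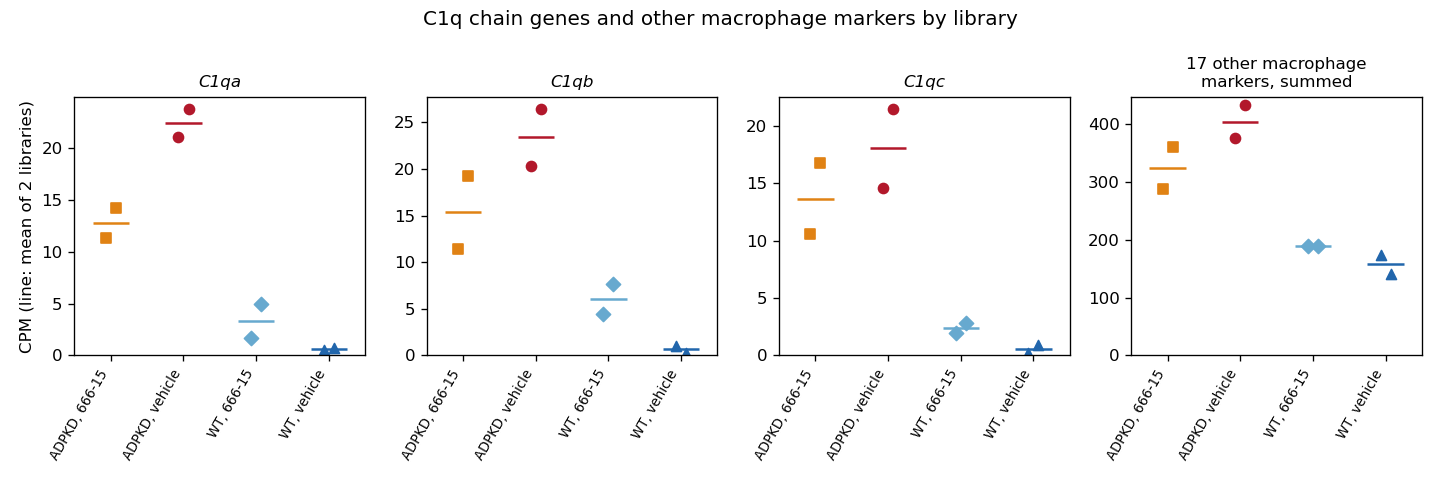
CPM of the 3 C1q chain genes and the summed CPM of 17 other macrophage markers in each library (points) with the mean of the 2 libraries (lines). In all 4 panels the ADPKD libraries lie above the WT libraries, and C1qa reaches 23.8 CPM on vehicle.

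Clec4d (chromosome 6, 123262111 to 123275265), a C-type lectin receptor of myeloid cells that senses microbial glycolipids, was in the lowered group. It had 2.35 and 4.31 CPM in ADPKD cells on 666-15 and 15.9 and 21.9 CPM on vehicle, against 0.86 and 1.08 CPM in WT cells on 666-15 and 0.526 and 0.313 CPM on vehicle. The ADPKD libraries separated by treatment, and so did the summed macrophage markers given above, in the same direction. Marker by marker the direction was mixed. Of the 18 macrophage markers outside the 16 genes, 2 were called higher on 666-15 than on vehicle in ADPKD cells (Mrc1, Cx3cr1). In the same comparison 3 were called lower (Itgam, Cd68, Tyrobp). Of all genes tested, 22.3% were called higher in it and 19.1% lower, so nothing is read from these counts. Neutrophil markers summed to 7.11 and 8.23 CPM in ADPKD cells on 666-15 and 3.20 and 7.95 CPM on vehicle, and from 2.84 to 8.11 CPM in the 4 WT libraries. On 666-15 the log2 genotype difference of Clec4d was 1.83 ± 0.40 (adjusted p = 0.0022).

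Clec4e, the receptor that pairs with Clec4d, had 5.14 and 8.87 CPM in ADPKD cells on 666-15 and 4.31 and 4.71 CPM on vehicle, against 1.13 and 2.28 CPM in WT cells on 666-15 and 1.42 and 1.31 CPM on vehicle. The ratio of 666-15 to vehicle was thus under 1 for Clec4d and over 1 for its partner. The list of C-type lectin genes was taken by symbol (Clec) alone. For scale, 21.8% of all genes tested rose and 24.5% fell in ADPKD against WT cells on 666-15. On vehicle the shares were 28.8% and 27.6%. Of 20 other genes of this list tested on 666-15, 6 rose and 7 fell in ADPKD against WT cells. Without ADPKD 666-15 replicate 1, 3 rose and 4 fell, and without replicate 2, 2 rose. On vehicle 8 rose and 6 fell (5 rose without WT vehicle replicate 1).

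The symbols Gm38158 and Gm4610 are gene models without a known function. Gm38158 (chromosome 1, 176835724 to 176836062) is annotated as a processed pseudogene of 339 bases inside Sdccag8, with no exonic base shared. It had 3.30 and 2.83 CPM in ADPKD cells on 666-15 and 16 and 13.3 CPM on vehicle, against 0.397 and 0.761 CPM in WT cells on 666-15 and 0.263 and 0.688 CPM on vehicle. Sdccag8 itself averaged 12.1 and 11.8 CPM in ADPKD cells on 666-15 and on vehicle, and 9.38 and 10.3 CPM in WT cells. Reads of a processed pseudogene can belong to its parent gene, so this value is uncertain.

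Gm4610 (chromosome 3, 122377097 to 122391811) lies antisense to Bcar3, an adaptor gene of integrin signalling. It had 3.05 and 2.76 CPM in ADPKD cells on 666-15 and 11.4 and 10.4 CPM on vehicle, against 0.132 and 0.824 CPM in WT cells on 666-15 and 0.579 and 0.250 CPM on vehicle. Bcar3 averaged 138 and 258 CPM in ADPKD cells on 666-15 and on vehicle, and 57.1 and 64.3 CPM in WT cells, the same order of the ADPKD groups. Gm4610 and Bcar3 share no exonic base. The strand setting of the counting is not given in the sources used here. Unspliced reads of Bcar3 that fall on Gm4610 exons therefore cannot be told apart from reads of Gm4610. On 666-15 the log2 genotype differences were 2.44 ± 0.43 for Gm38158 (adjusted p = 4.73e-04) and 2.63 ± 0.54 for Gm4610 (adjusted p = 0.0015, with 1.87 and 4.45 without WT 666-15 replicate 1 and replicate 2).

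WT cells on 666-15 did not stay below 1 CPM for every gene. Both libraries reached 1 CPM for 5 genes (Tmem40, Arhgap40, C1qa, C1qc, Tmeff1), 1 library did for Clec4d and Ppp2r2c, and 9 genes stayed below it in both. For 7 genes both WT 666-15 libraries lay above both WT vehicle libraries, and for Dio2 both lay below. By edgeR 25.5% of all genes were called between the WT treatments, 13.9% higher and 11.6% lower on 666-15. Among all genes tested 27% had both WT 666-15 libraries above. Shares over all genes were not computed for the other counts in this paragraph. The WT vehicle libraries had been chosen for values below 1 CPM, so nothing is read from any of these counts, Dio2 included.

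Per kilobase of annotated exon, the scale on which genes can be set beside each other, the highest mean level in ADPKD vehicle cells was that of Gm38158 (43.2 CPM per kb), followed by C1qa (21.6) and Tmem40 (20.4). The lowest was Ppp2r2c (3.18 CPM per kb). In ADPKD cells on 666-15 the order was led by C1qa (12.3 CPM per kb) and Tmeff1 (10.7), and Dio2 was lowest (0.68).

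The selection limits had close neighbours on both sides. Just inside the WT limit were Arhgap40, Tmeff1 and Tmem40, with 0.948, 0.938 and 0.938 CPM in their higher WT vehicle library. Just outside it were Moxd1 and Urah (1.0 CPM each) and C1qb. At the ADPKD limit Ereg, Gm4610 and Ppp2r2c were just inside, with 10.05, 10.4 and 10.9 CPM in their lower ADPKD vehicle library, and Nppb, Gal and Ccl9 were just outside with 9.64, 9.43 and 8.98 CPM.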

How the data were processed

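Poly(A)-selected RNA was sequenced from DBA-positive kidney cells. The submitters' processing notes name HISAT2 2.1.0, featureCounts 1.6.0, DESeq2 and the build mm10. The deposited table holds raw counts per gene symbol, 1 column per library; the vehicle columns, whose headers give no treatment, were matched by elimination. Its mitochondrial rows are at 0 in each library.

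CPM is the count over the column total. Members and lists were chosen with earlier results of these data known. 1 of the 16 members and what rests on it alone is not reported here, though counts and sums over the 16 include it. Named are the others, their partners by known function, and genes of the macrophage, EGF ligand, interleukin, gasdermin and C-type lectin lists, each of which holds a member.

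Counts were tested in R 4.3.3 with edgeR 4.0.16: filterByExpr (minimum count 10, total 15), TMM, 1 robust quasi-likelihood model of 4 groups with 4 residual degrees of freedom, two-sided, Benjamini-Hochberg adjusted at 0.05. The model was run on simulated counts with far fewer changed genes than these data, which does not measure its error rate here. DESeq2 1.42.0 was an alternative. Positions are GENCODE M21 (GRCm38), which matched 96.9% of rows; promoters are RefSeq GRCm38.p6 and matched 10 members. Replicate numbers did not pair libraries: differences between replicates correlated at -0.0034 to 0.0599 between groups.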

Additional observations from a re-analysis of the deposited data

Results flagged for a closer look

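For 5 genes every ADPKD library was lower and every WT library higher with 666-15 than with vehicle. The ratios of 666-15 to vehicle means were 0.442 in ADPKD and 3.48 in WT cells for Arhgap40, 0.57 and 5.43 for C1qa, 0.176 and 2.31 for Clec4d, 0.217 and 3.71 for Gsdma, and 0.267 and 2.48 for Tmem40. The log2 of the ADPKD ratio over the WT ratio was -2.98 for Arhgap40, -3.25 for C1qa, -3.72 for Clec4d, -4.10 for Gsdma and -3.21 for Tmem40. The difference between genotypes was not tested, because the vehicle libraries that enter both ratios had chosen these genes as high in ADPKD and low in WT cells. Among all genes tested, 35.2% had both ADPKD libraries lower with 666-15, and 27% had both WT libraries higher. The share of all genes with both patterns at once was not computed, so nothing is read from the 5.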

How the results depend on the processing

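The call of all 16 genes as higher in ADPKD than WT cells on 666-15 held with RLE scaling, without a filter on low counts, with 5 CPM in 2 libraries, without robust estimation, with the 2 inhibitor groups alone, with DESeq2, at 2-fold and with the GC trend removed. With the replicate number as a block, 16 were called as well, and 8014 of all genes. Leaving out 1 library gave 14 to 16 genes (a lone library is assumed to vary like the others), and no gene changed sign in 272 refits, of which 4 lost the call (Dio2 in 3, Arhgap40 in 1). Over all genes 8081 differed, 5799 to 8300 with 1 library left out, and 3909 at 2-fold. The selection itself was less stable: 0 genes at limits of 0.5 and 20 CPM, 132 at 2 and 5 CPM, 31 when group means had to pass, and 22 to 24 when 1 vehicle library was ignored. The number of genes retained with 666-15 was 4, and 7 at a ratio of 0.33, 3 at 0.67, 6 with the GC trend removed (Arhgap40 and Ppp2r2c added) and 4 to 5 without 1 library. Counts of 2 to 18 reads per WT vehicle library limit every ratio to WT.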
